A study of Macaca fascicularis and Macaca mulatta and Papio anubis with 20 samples.

Results

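Enkephalin is made from PENK, and the opioid receptors are encoded by OPRM1 (mu), OPRD1 (delta), OPRK1 (kappa) and OPRL1 (the nociceptin receptor). These 5 genes were looked up by symbol among the features counted in primate dorsal root ganglia, which house the cell bodies of the sensory neurons of trunk and limbs. All 5 were among the 22000 features of Macaca fascicularis. In the sections labelled Macaca mulatta 4 of the 5 were found among 20842 features, and in those labelled Papio anubis 4 among 21369; OPRD1 was the symbol not found in either.

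PENK is a precursor protein that proprotein convertases and carboxypeptidase E cut into met- and leu-enkephalin, short peptides stored in dense-core vesicles. Enkephalins act on delta and mu receptors, dynorphins (from PDYN) on the kappa receptor and nociceptin (from PNOC) on OPRL1. All 4 receptors couple to inhibitory Gi/Go proteins, which lower cyclic AMP, close calcium channels and open potassium channels, and receptors on sensory neurons are a known site of opioid analgesia. Outside the cell the peptides are destroyed by peptidases such as neprilysin (MME).

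The ganglia were measured by Visium, an assay in which a fresh frozen section lies on a slide of barcoded capture spots and captured transcripts are counted as unique molecular identifiers (UMIs). The series held 20 sections of 10 µm cut 100 µm apart: 16 of M. fascicularis, 4 each from a female and a male specimen in each of 2 labelled batches, 2 labelled M. mulatta and 2 labelled P. anubis. A specimen here is a title code of the labels, which do not say whether it is a single animal or ganglion. No treatment, strain or age was labelled for any group, and no sex for the sections labelled M. mulatta and P. anubis, which carry the label batch 2. A spot is a small region that may cover more than 1 cell, so shares below are shares of spots.

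M. fascicularis sections held 1136433 to 7073134 UMIs under tissue, with a median of 398 to 5145 UMIs per spot. Totals were 190376 and 264661 UMIs in the sections labelled M. mulatta, against 595020 and 12595205 in those labelled P. anubis. All 10 measured neuron markers were detected in every M. fascicularis section, as were 9 or 10 of 10 nociceptor and 6 to 9 of 9 large-fibre markers. The files of the sections labelled M. mulatta carry the gene identifiers of P. anubis and the reverse, so these 2 labels may be crossed. Section 3 of the male of batch 2 entered only through its sums per gene, and its spots were not analysed here, which left 19 sections with 32952 tissue spots. In M. fascicularis the Space Ranger version went with the batch, so batch, version and specimen cannot be told apart.

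PENK was sparse and uneven between sections, with 868 UMIs in all, found in 19 of the 20 sections. In the female of batch 1 (sections 1 to 4) PENK gave 0, 7, 94 and 65 UMIs, and in the male of batch 1 it gave 1, 3, 14 and 61. The female of batch 2 gave 11, 52, 22 and 102 PENK UMIs, and the male of batch 2 gave 1, 5, 1 and 3. In both batch 1 specimens sections 3 and 4 therefore held more PENK UMIs than sections 1 and 2. Section 3 of the male of batch 1 held only 14, and every section of the male of batch 2 was low. The summed level of the large-fibre marker list also stood apart between these sections of batch 1, at 4454 to 7627 CPM, UMIs of a gene or list scaled to a common total per section, in sections 1 and 2 and 8576 to 13042 CPM in sections 3 and 4; its part in the PENK difference was not tested. In the female of batch 2 that list was at 4480, 8421, 7852 and 6194 CPM, and its highest section was not the one with most PENK.

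Scaled to the section's total, PENK averaged 8.05 ± 8.44 CPM in the female of batch 1, 3.32 ± 3.87 CPM in the male of batch 1, 9.26 ± 7.62 CPM in the female of batch 2 and 1.52 ± 1.29 CPM in the male of batch 2 (SD, n = 4 sections each). The median over all 16 sections was 2.63 CPM and the highest 19.9 CPM. Counting error was wide, relative to the level, where UMIs were few. The highest section, section 4 of the female of batch 2, gave 19.9 CPM on 102 UMIs (95% exact Poisson interval 16.2 to 24.2). In section 1 of the male of batch 2, 1 UMI gave 0.311 CPM (upper bound 1.73). The lowest section, section 1 of the female of batch 1, had 0 UMIs (upper bound 2.29). These intervals cover counting error only. The groups overlapped. With the 4 specimens ordered by mean, no neighbours differed by more than the larger of their SDs. The ends of that order, 9.26 and 1.52 CPM, lay slightly further apart than the larger SD of 7.62 CPM.

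In the sections labelled P. anubis PENK gave 11 and 413 UMIs, or 18.5 and 32.8 CPM. In those labelled M. mulatta it gave 1 UMI in each section, which at their depth is 5.25 and 3.78 CPM with upper bounds of 29.3 and 21.1. Across species, levels were set side by side over the 13102 gene symbols shared by all sections: PENK had a median of 4.16 CPM in M. fascicularis (range 0 to 32.3) and 33.6 and 60.6 CPM in the 2 sections labelled P. anubis. The higher lay above every M. fascicularis section on this scale. The lower rests on 11 UMIs, which over all features give 18.5 CPM with a 95% exact Poisson interval of 9.23 to 33.1, so its order against the highest M. fascicularis section is within counting error. Both values come from 1 specimen and no test was possible.

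OPRL1 was detected in every M. fascicularis section and gave 1204 UMIs over 18 of the 20 sections. In batch 1 it gave 28, 56, 175 and 97 UMIs in the female and 65, 75, 84 and 198 in the male. In batch 2 the female gave 31, 49, 39 and 53 OPRL1 UMIs and the male 24, 13, 25 and 14. OPRL1 thus averaged 20.3 ± 6.12 CPM in the female and 21.0 ± 5.51 CPM in the male of batch 1, against 8.93 ± 1.33 and 9.74 ± 3.01 CPM in the female and male of batch 2 (SD, n = 4 sections each). The 8 sections of batch 1 lay at 13.1 to 27.99 CPM and the 8 of batch 2 at 6.83 to 12.3 CPM, so the batches did not overlap, while the 2 specimens within a batch did. Such a gap between batches was found for 8.27% of the 10732 genes with a UMI in all 16 sections, with 5.6% lower in batch 2, as OPRL1 was, and 2.67% higher. The summed neuron list was at 22878 and 23232 CPM in the female and male of batch 1 and 25448 and 19496 CPM in batch 2, and the large-fibre list at 8837 and 8098 against 6737 and 3666 CPM. The immune list lay at 1654 to 2211 CPM in the sections of batch 1 and 422 to 1122 CPM in those of batch 2, and the adipocyte list at 1005 to 1559 and 2253 to 5929 CPM. The fibroblast list, at 3095 to 7103 and 1224 to 3376 CPM, and the myelinating Schwann list, at 3384 to 9084 and 2003 to 4041 CPM, overlapped slightly between batches. The part of these lists in the OPRL1 difference was not tested.

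In the sections labelled P. anubis OPRL1 gave 7 and 171 UMIs, or 11.8 and 13.6 CPM, inside the M. fascicularis range. No OPRL1 UMI was found in the 2 sections labelled M. mulatta, where a count of 0 allows up to 15.8 and 11.3 CPM (3 counts of the section's total).

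**Figure D1:**
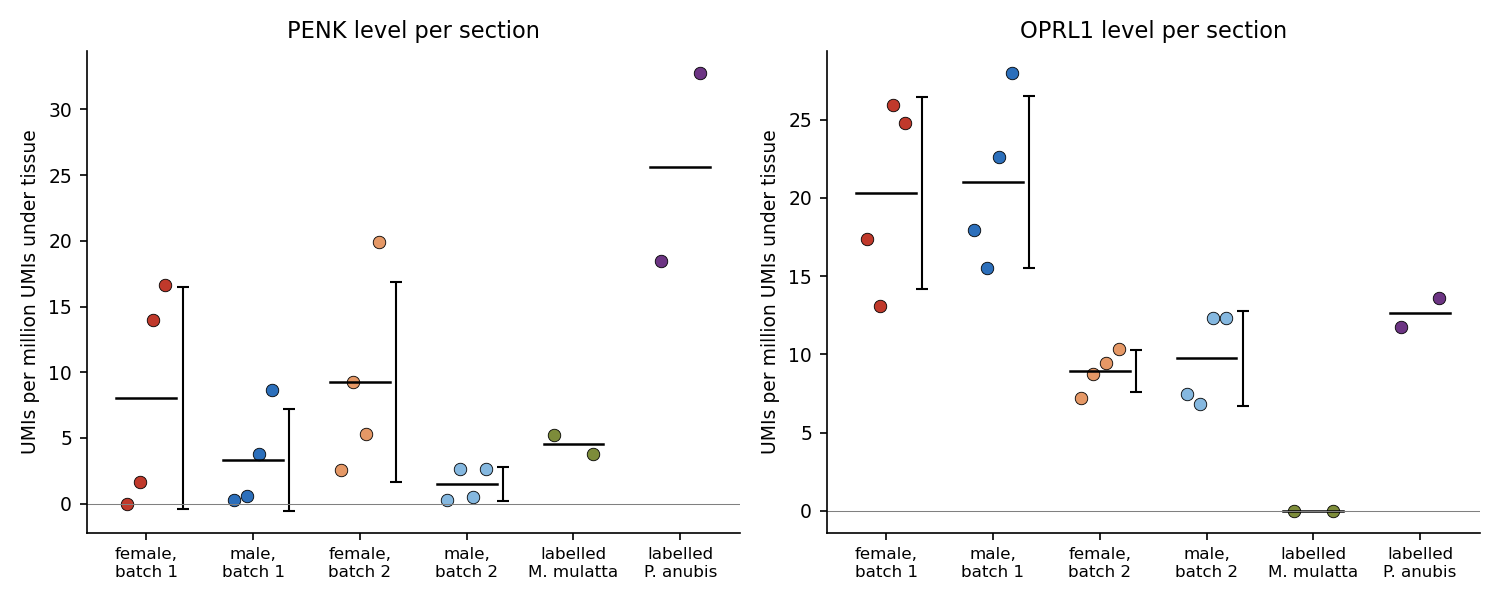
PENK (left) and OPRL1 (right) in CPM of the UMIs under tissue, 1 point per section, by specimen; horizontal lines are group means and the vertical bars beside them 1 SD over 4 sections either way. PENK overlaps between all M. fascicularis specimens and reaches 32.8 in a section labelled P. anubis, while the OPRL1 points of batch 1 (13.1 to 27.99) lie above those of batch 2 (6.83 to 12.3).

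The 3 classical receptors were at or near the limit of detection. OPRM1 gave 12 UMIs in all, in 9 of the 20 sections and at most 2 in any section, 8 of them in M. fascicularis (at most 0.552 CPM). OPRD1 had no UMI in the 16 M. fascicularis sections, which allows at most 0.424 CPM in the deepest and 2.64 CPM in the shallowest section. OPRK1 likewise had no UMI in M. fascicularis and none in 3 of the 4 other sections. Section 2 labelled P. anubis, the deepest library, held 21 OPRK1 UMIs in 18 spots, or 1.67 CPM (95% exact Poisson interval 1.03 to 2.55), and no OPRK1 UMI lay outside tissue there. These counts cannot separate an absent transcript from a rare one, and in sums over tissue fewer cells of a type and less RNA per cell cannot be told apart.

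As a share of tissue spots, OPRL1 had a UMI in 2.74% to 10.97% of spots in the batch 1 sections and 0.732% to 2.53% in those of batch 2. PENK had a UMI in 0% to 3.52% of spots in batch 1 and 0.0699% to 2.68% in batch 2. Outside tissue, where no cell lies, OPRL1 was found in 0% to 0.474% of spots and PENK in 0% to 0.385%. In section 4 of the male of batch 2 PENK had a UMI in 0.335% of tissue spots and 0.122% of outside spots, with exact binomial 95% bounds of 0.0692% and 0.976% on the former. This is an interval that holds the outside share, so those 3 UMIs cannot be set apart from the level outside tissue. In section 4 of the female of batch 1 PENK reached 17.0 CPM outside tissue and 16.6 CPM under it, on 13 outside UMIs. PENK was also higher outside in section 2 of that specimen, at 4.54 against 1.64 CPM (2 outside UMIs). In the male of batch 1 section 3 gave 6.997 against 3.77 CPM (2 outside UMIs). Section 4 of that male gave 14.6 against 8.62 CPM (5 outside UMIs). In the male of batch 2 section 2 gave 8.696 against 2.63 CPM (2 outside UMIs). Section 4 of that male gave 20.2 against 2.64 CPM (5 outside UMIs). PENK was not higher outside in the other M. fascicularis sections with spots. OPRL1 stood at 24.8 CPM both outside and under tissue in section 4 of the female of batch 1, on 19 outside UMIs. In section 4 of the male of batch 1 OPRL1 was at 29.3 outside against 27.99 CPM under tissue, on 10. It was at 14.5 against 15.5 CPM in section 2 of the male of batch 1 (8 outside UMIs) and 9.32 against 7.45 CPM in section 1 of the male of batch 2 (3 outside UMIs). In section 4 of the female of batch 2 it was at 16.1 against 10.4 CPM (3 outside UMIs). Section 3 of that specimen gave 12.3 against 9.42 CPM (1 outside UMI). OPRL1 was lower outside in the other M. fascicularis sections with spots. Section 3 of the male of batch 1, for example, gave 10.5 against 22.6 CPM (3 outside UMIs).

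Spots differed in depth between batches, so each spot with at least 500 UMIs was also thinned to 500. The OPRL1 share then was 0.902% ± 0.215 (SD, n = 8 sections) in batch 1, ranging from 0.635% to 1.15%, and 0.390% ± 0.0942 (SD, n = 7) in batch 2, ranging from 0.270% to 0.526%. The SDs of thinned shares pool the sections of 2 specimens per batch. Sections of a specimen are not independent, so these SDs do not measure the spread between specimens. At 500 UMIs the ranges did not overlap. Thinned to 1000 UMIs they met, at a lowest value of 1.32% in batch 1 and a highest of 1.41% in batch 2. How many of all genes would show such a gap in thinned shares was not computed, so the gap cannot be called particular to OPRL1. The thinned PENK share was 0.229% ± 0.244 in batch 1 and 0.253% ± 0.289 in batch 2.

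Between batches neither member passed the test at an adjusted p of 0.05. For OPRL1 the log2 ratio of batch 2 over batch 1 was -1.14 (SE 0.29, edgeR adjusted p 0.0926). For PENK it was -0.61 (SE 0.52, edgeR adjusted p 0.586). The fit compared the 4 specimens with sex as a covariate, and 2 of the 5 members, PENK and OPRL1, passed the filter on low counts. Against these 0 of 2, 364 of all 12650 genes (2.88%) were called, 1.26% higher and 1.61% lower in batch 2. The OPRL1 difference passed without section 1 of the female of batch 1 (edgeR adjusted p 0.0478) or without section 4 of that specimen (0.0435). It also passed without the filter on low counts (0.00965, with 7.38% of genes called) and with single sections as samples (0.000217, with 40.7% called); the PENK value turned to 0.012 without section 4 of the male of batch 1.

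Between the sexes the log2 ratio of female over male was 2.08 for PENK (SE 0.53), which did not pass after adjustment (edgeR unadjusted p 0.00446, adjusted p 0.998). The same order held in both batches, 8.05 against 3.32 CPM and 9.26 against 1.52 CPM, but single sections overlapped. Leaving out single sections gave log2 ratios from 1.79 to 2.95, the highest without section 4 of the male of batch 1 (edgeR adjusted p 0.965). The large-fibre list was also higher in the female of batch 2 than in the male (6737 against 3666 CPM) and near the male's level in batch 1 (8837 against 8098 CPM); its part was not tested. For OPRL1 the log2 ratio was 0.043 (SE 0.29, edgeR adjusted p 0.998). None of the 2 members and 0 of 12650 genes (0%) were called with edgeR, 169 of them at an unadjusted p under 0.05. DESeq2 called 0 as well, with 179 at an unadjusted p under 0.05. With 4 specimens and both sex and batch in the fit, little was left to measure spread, so 0 calls do not show equal levels. Without the filter on low counts the PENK difference was called (edgeR adjusted p 0.00299), with 67 of 17322 genes (0.387%). With single sections as samples, where 0.075% of genes were called, it was not (edgeR adjusted p 0.167).

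Where neuronal transcripts were dense, OPRL1 was higher, and the PENK difference did not pass. In each M. fascicularis section the 25% of spots with the highest share of UMIs from the neuron marker list were compared with the other spots, counts being summed per specimen. Only spots with at least 500 UMIs entered, and neuron-rich spots were the deeper ones in 15 of 15 sections (medians of 1400 to 12635.5 against 1049.5 to 6143 UMIs). OPRL1 rose from 18.5 to 26.1 CPM in the female and from 15.3 to 29.7 CPM in the male of batch 1. In batch 2 it rose from 7.04 to 11.8 CPM in the female and from 5.22 to 16.1 CPM in the male. The log2 fold change was 0.88 (SE 0.13, edgeR adjusted p 8.76e-06), and OPRL1 was higher in 4 of 4 specimens. The size depended on how spots were ranked: it was 0.39 (edgeR adjusted p 0.0495) when the neurofilament and peripherin genes were left out of the list, and 0.52 (edgeR adjusted p 0.00365) when spots were ranked by UMIs of the list. The call ended when the specimen was not kept as a block (edgeR adjusted p 0.397), a fit in which 0 of 11370 genes were called and 1378 had an unadjusted p under 0.05.

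PENK went from 10.3 to 9.83, from 3.33 to 5.12, from 14.6 to 4.73 and from 1.19 to 0 CPM in the same order of specimens, with 1 of 4 higher in neuron-rich spots. Its log2 fold change of -0.43 (SE 0.26) did not pass (edgeR adjusted p 0.193). Of the 2 members tested 1 was called, where 4598 of 12010 genes (38.3%) were, 17.4% higher and 20.9% lower, so a call was common in this comparison. Without the female of batch 2 the PENK value turned to 0.18, and without the male of batch 1 it was -0.77 and passed (edgeR adjusted p 0.0197). PENK was also called lower with the top 10% of spots (-1.18, edgeR adjusted p 0.00568), without the spot of 23 PENK UMIs in section 4 of the female of batch 1 (-0.66, edgeR adjusted p 0.0454) and without a filter on low counts (edgeR adjusted p 0.0444).

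The 2 members went opposite ways between regions rich in nociceptor and in large-fibre transcripts. Nociceptors are the pain-sensing neurons, and large fibres carry touch and position sense; here the 15% of spots highest in each marker list were compared. OPRL1 was lower in nociceptor-rich spots in 4 of 4 specimens: 19.9 against 30.1 CPM in the female and 18.9 against 32.1 CPM in the male of batch 1, then 5.34 against 13.6 CPM and 4.96 against 12.1 CPM in the female and male of batch 2. Its log2 fold change was -0.90 (SE 0.16, edgeR adjusted p 0.000152).

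PENK stood at 19.6 against 5.18 CPM in the female of batch 1, 3.99 against 4.65 CPM in the male of batch 1, 5.93 against 2.86 CPM in the female of batch 2 and 1.24 against 1.10 CPM (1 UMI on each side) in the male of batch 2. The log2 fold change of 0.99 (SE 0.32) passed (edgeR adjusted p 0.0216), with 3 of 4 specimens higher in nociceptor-rich spots. Both members were called, where 3693 of 10766 genes (34.3%) were, 15.8% higher and 18.5% lower in nociceptor-rich spots. The PENK call rested on the female of batch 1: without that specimen the log2 fold change was 0.28 (edgeR adjusted p 0.669), and without a single spot of its section 4 that held 23 of that section's 65 PENK UMIs it was 0.66 (edgeR adjusted p 0.0976). DESeq2 gave an adjusted p of 0.272 for PENK and 0.00198 for OPRL1, and without the specimen as a block neither passed (edgeR adjusted p 0.444 and 0.357).

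**Figure D2:**
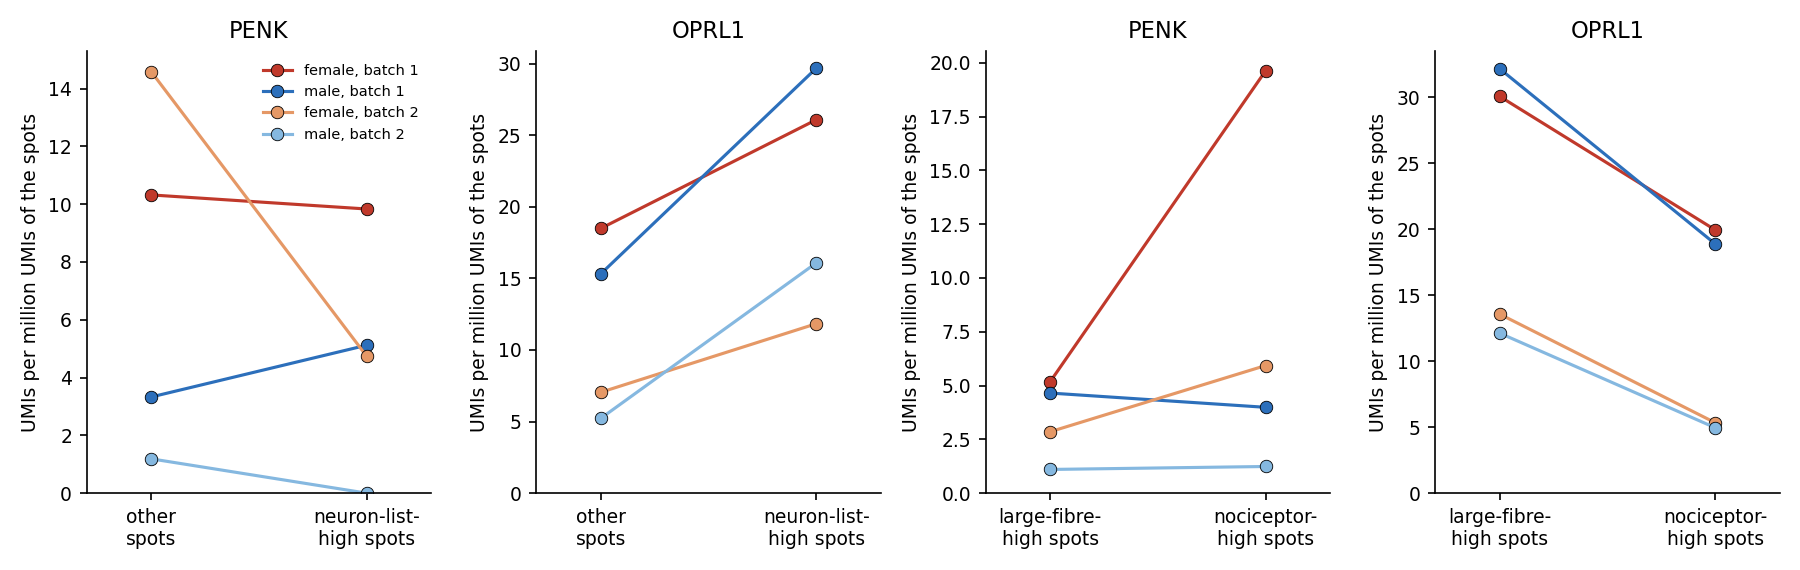
PENK and OPRL1 in CPM, summed per specimen of M. fascicularis, in neuron-list-high and other spots (left pair) and in large-fibre-list-high and nociceptor-list-high spots (right pair); each line joins the 2 sums of a specimen. OPRL1 slopes the same way in 4 of 4 specimens in both comparisons, and the steepest PENK line, from 5.18 to 19.6, belongs to the female of batch 1.

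The same contrast was described over 10 marker lists, each time for the spots highest in the list against the other spots. OPRL1 was highest relative to the rest in large-fibre-rich spots (24.0 against 12.7 CPM) and neuron-rich spots (22.1 against 12.5 CPM). It was lower in spots rich in myelinating Schwann cell transcripts (8.29 against 17.3 CPM) and fibroblast transcripts (10.4 against 17.2 CPM), in 4 of 4 specimens in both. These are pooled levels, in which the specimens weigh unequally. By specimen the Schwann-rich level was 0.509 and 0.405 times the other in the female and male of batch 1 and 0.789 and 0.529 times in those of batch 2, on 4 to 13 UMIs each. For the fibroblast list the ratio was 0.867, 0.516 and 0.548, and the male of batch 2 had 2 UMIs in such spots. PENK was lower in large-fibre-rich spots in 4 of 4 specimens (3.89 against 9.12 CPM) and higher in nociceptor-rich spots in 3 of 4 (9.73 against 6.17 CPM). The large-fibre-rich level was 0.487 and 0.194 times the other in the females of batch 1 and batch 2. In the male of batch 1 it was 0.920 times the other, and in the male of batch 2 it rested on 1 UMI. The nociceptor-rich level was 2.51 times the other in the female of batch 1 but 1.07 and 1.14 times in the male of batch 1 and the female of batch 2, and in the male of batch 2 it rested on 1 UMI. In satellite-glia-rich spots PENK stood at 4.47 against 8.15 CPM and in fibroblast-rich spots at 4.05 against 7.66 CPM, with 1 and 2 of 4 specimens higher.

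**Figure D3:**
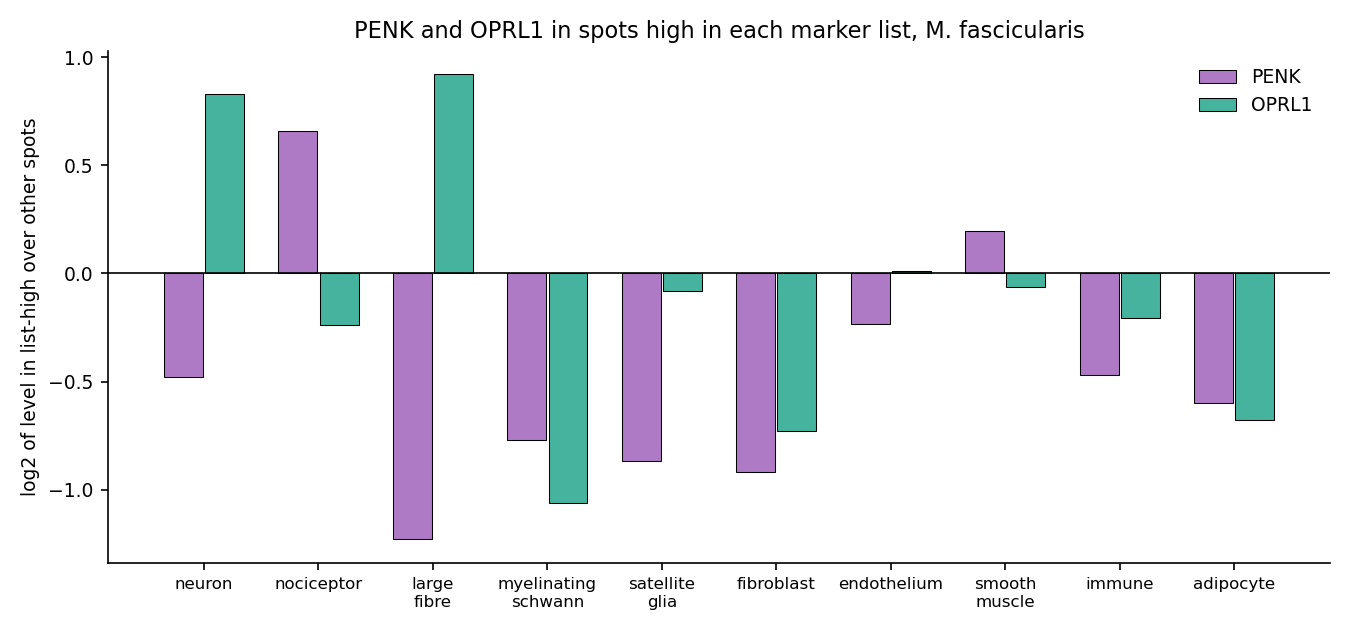
Log2 of the PENK and OPRL1 level in spots highest in each of 10 marker lists over the level in the other spots, pooled over M. fascicularis. OPRL1 is above 0 for the large-fibre and neuron lists in 4 of 4 specimens, and the pooled PENK value is above 0 for the nociceptor list, with 3 of 4 specimens higher, and the smooth muscle list, with 2 of 4.

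PENK transcripts were concentrated in few spots in some sections, and OPRL1 transcripts were spread thinly. In sections with at most 14 PENK UMIs the counts were too few to tell an even layout from an uneven one. In section 4 of the female of batch 1 a single spot held 23 PENK UMIs and the variance of UMIs per spot was 9.49 times the mean. In section 3 of the female of batch 2, 7 spots carried all 22 PENK UMIs, 10 of them in the same spot, with a ratio of 5.99. Section 2 labelled P. anubis had 413 PENK UMIs in 197 spots, up to 19 in a spot, with a ratio of 5.43. The PENK ratio was 2.52, 2.75 and 3.11 in section 3 of the female of batch 1 and sections 2 and 4 of the female of batch 2. It was 0.989 in section 3 of the male of batch 1, where 14 UMIs lay in 14 spots, 1.55 in section 4 of that specimen, 1.28 in section 2 of the female of batch 1, 1.17 in section 1 of the female of batch 2 and 0.998 in section 2 of the male of batch 2. For OPRL1 this ratio lay between 0.975 and 1.42 in the sections with at least 5 UMIs but for section 1 of the female of batch 1, where a spot with 7 of the 28 UMIs gave 2.61. A ratio of 1, the dashed line in the plot of unevenness, is what independent counts of equal mean would give, and spots of unequal depth raise it.

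Spots with PENK touched one another to a varying extent. Of the PENK spots 49.1% touched another in section 3 of the female of batch 1, 51.8% in section 4 of the female of batch 2 and 69.5% in section 2 labelled P. anubis. The share was 23.3% in section 4 of the female of batch 1 and 17.9% in section 2 of the female of batch 2, and no PENK spot touched another in section 3 of the latter, which had 7. OPRL1 spots touched one another too, 66.9% of them in section 4 of the male of batch 1, 57.1% in section 1 of the female of batch 2 and 53.2% in section 2 labelled P. anubis. These shares grow with the number of spots that have the gene, and the share expected from that number was not computed.

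**Figure D4:**
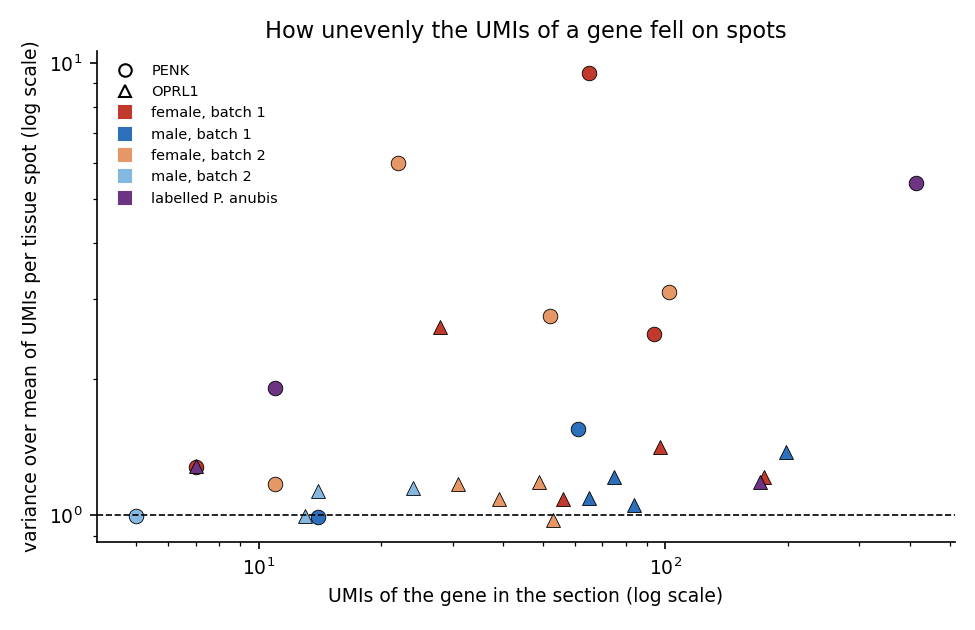
Variance over mean of UMIs per tissue spot against the UMIs of the gene in the section, both on log axes, for PENK (circles) and OPRL1 (triangles) in sections with at least 5 UMIs. PENK reaches 9.49, and OPRL1 stays at or below 1.42 in all sections but 1.

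The authors' deposited table scores spatial clustering per gene and section by Moran's I, which is near 0 for a random layout and rises when neighbouring spots are alike. In the authors' deposited table PENK had an adjusted p under 0.05 in 4 of the 19 sections where it was scored. Its I was 0.0431 in section 3 of the female of batch 1 (17.8% of all genes of that section under 0.05), 0.0349 in section 4 of the female of batch 2 (14.6%) and 0.0596 in section 2 labelled P. anubis (22.6%), in the authors' deposited table. These values of I stood at percentiles 92.1, 93.7 and 94.4 of the genes scored in each section. The call that remained in the authors' deposited table, in section 1 labelled M. mulatta (adjusted p 0.036, 3.62% of genes), rests on 1 UMI and an I below 0.

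OPRL1 was under 0.05 in 0 of 18 sections in the authors' deposited table, with I between -0.00422 and 0.0226. In the authors' deposited table the share of all genes under 0.05 was 20.7%, 40.6%, 17.8% and 17.5% in sections 1 to 4 of the female and 16.8%, 16.1%, 19.7% and 21.4% in the male of batch 1. For the female of batch 2 it was 13.3%, 8.3%, 8.59% and 14.6% and for the male 22.1%, 6.3%, 7.69% and 5.42%, in the authors' deposited table. In the sections labelled M. mulatta the authors' deposited table gave 3.62% and 2.53%, and in those labelled P. anubis 3.31% and 22.6%. OPRM1 was under 0.05 in section 1 of the male of batch 1 on 2 UMIs (I 0.0276, 16.8% of genes), and OPRK1 had an I of 0.000664, also in the authors' deposited table. The 2 spots with those OPRM1 UMIs did not touch, and I recomputed over adjacent spots was -0.0023 there. The 5 member calls of 0.05 all had an I under 0.1.

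Shared spots of PENK and OPRL1 were counted against the number that spot depth would give. Among M. fascicularis spots with at least 500 UMIs in the 14 sections that had both genes, 265 had PENK, 847 had OPRL1 and 44 had both. Deep spots catch more of every gene, so the expected number was computed within 10 strata of spot depth in each section, which gave 36.2; without strata it was 19.7. The stratified odds ratio was 1.31, and by specimen it was 1.205 in the female and 2.15 in the male of batch 1, 0.603 in the female of batch 2, and 0 in the male of batch 2, where 5 spots had PENK. In the sections labelled P. anubis 24 spots had both and 26.1 were expected. The shared spots were 16.6% of PENK spots and 5.19% of OPRL1 spots in M. fascicularis, where 847 of 14267 spots had OPRL1.

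Overlaps with the rarer receptors were counts of a few spots. No M. fascicularis spot had PENK and OPRM1 together, among 69 spots with the former and 8 with the latter in 5 sections (0.242 expected). OPRM1 and OPRL1 met in 2 spots, with 1.57 expected. In section 2 labelled P. anubis 5 spots had PENK and OPRK1, with 3.31 expected, and 1 had OPRK1 and OPRL1, with 2.98 expected. TRPM8 was in 10 of the 18 OPRK1 spots there (5.34 expected), a pair chosen after the values were seen.

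The gene most like PENK across spots was TRPM8, the cold- and menthol-gated channel of cold-sensing neurons. Likeness was the median over sections of the Pearson correlation of log-scaled UMIs across spots of at least 500 UMIs; it is a description, since spots of a section share a library and depth. TRPM8 ranked first of 8177 genes at a median r of 0.106 over 12 sections (from -0.0157 to 0.325). COLQ, which encodes the collagen tail of acetylcholinesterase, was the second, at a median r of 0.103. The section with most PENK, section 2 labelled P. anubis, did not enter that ranking: there TRPM8 again ranked first, of 8857 genes, at r = 0.319 over 2207 spots. ENTPD3, an ectonucleotidase named here after its values were seen, was the third in M. fascicularis (median r 0.0853) and the second in that section (r = 0.270). The symbol COLQ was not found among the features of that section.

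Counted as spots, in M. fascicularis 49 had PENK and TRPM8, where 15.03 were expected within depth strata, an odds ratio of 4.67. TRPM8 was in 18.5% of PENK spots against 2.21% of all spots, and the observed number exceeded the expected in 8 of the 12 sections that had both genes. By specimen 18 spots against 6.14 expected were seen in the female of batch 1, 11 against 4.65 in the male of batch 1, 20 against 4.21 in the female of batch 2 and 0 against 0.0338 in the male of batch 2. Of the 39 spots with at least 3 PENK UMIs, 18 had TRPM8. PENK stood at 50.0 CPM in spots with TRPM8 and 5.21 CPM elsewhere.

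In the sections labelled P. anubis 90 spots had PENK and TRPM8 with 49.6 expected (odds ratio 3.58), all of them in section 2. Section 1 had 1 PENK spot and 4 TRPM8 spots of at least 500 UMIs, and none with both. Over these sections 34 of the 39 spots with at least 3 PENK UMIs had TRPM8. PENK stood at 83.6 CPM in their TRPM8 spots and 13.9 CPM elsewhere. Since TRPM8 was picked by its likeness to PENK in M. fascicularis, the counts of that species describe the choice and only these sections were not used for it.

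PENK and COLQ shared 80 spots in M. fascicularis with 24.7 expected (odds ratio 5.53), in excess in 9 of 12 sections. COLQ too was picked by its likeness to PENK in these spots, so this excess describes the choice. Section 2 labelled P. anubis, which lacked the symbol, could not serve as a check. OPRL1 shared 45 spots with TRPM8 (49.0 expected) and 90 with COLQ (87.7 expected). Among nociceptor genes PENK shared 146 spots with SCN11A, a sodium channel of nociceptors (145.0 expected), 211 with TAC1, the substance P precursor (210.0 expected), 118 with TRPV1, the heat and capsaicin channel (97.8 expected), and 16 with TRPA1, the irritant channel (9.62 expected).

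The genes most like OPRL1 were NEFL, the neurofilament light chain (median r 0.103 over 15 sections), and FBXO2 (0.1003), a ubiquitin ligase subunit of neurons. In section 2 labelled P. anubis neither was among the first 5. Large-fibre markers differed in this: the median r was 0.0914 for NEFH, 0.0850 for SPP1, 0.0596 for PVALB and 0.0169 for RUNX3, but -0.0095 for NTRK3, the neurotrophin-3 receptor, -0.0085 for NTRK2, -0.0076 for CNTNAP2 and -0.0061 for ESRRG. As spots, OPRL1 shared 120 spots with RUNX3, a transcription factor of proprioceptors, with 97.1 expected (odds ratio 1.40), and 582 with PVALB, a calcium buffer of the same neurons, with 549.5 expected. With NTRK3 it shared 16 (13.7 expected), with NTRK2 36 (34.1 expected) and with CNTNAP2 26 (25.6 expected). With TRPA1 it shared 16 spots and 28.04 were expected.

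**Figure D5:**
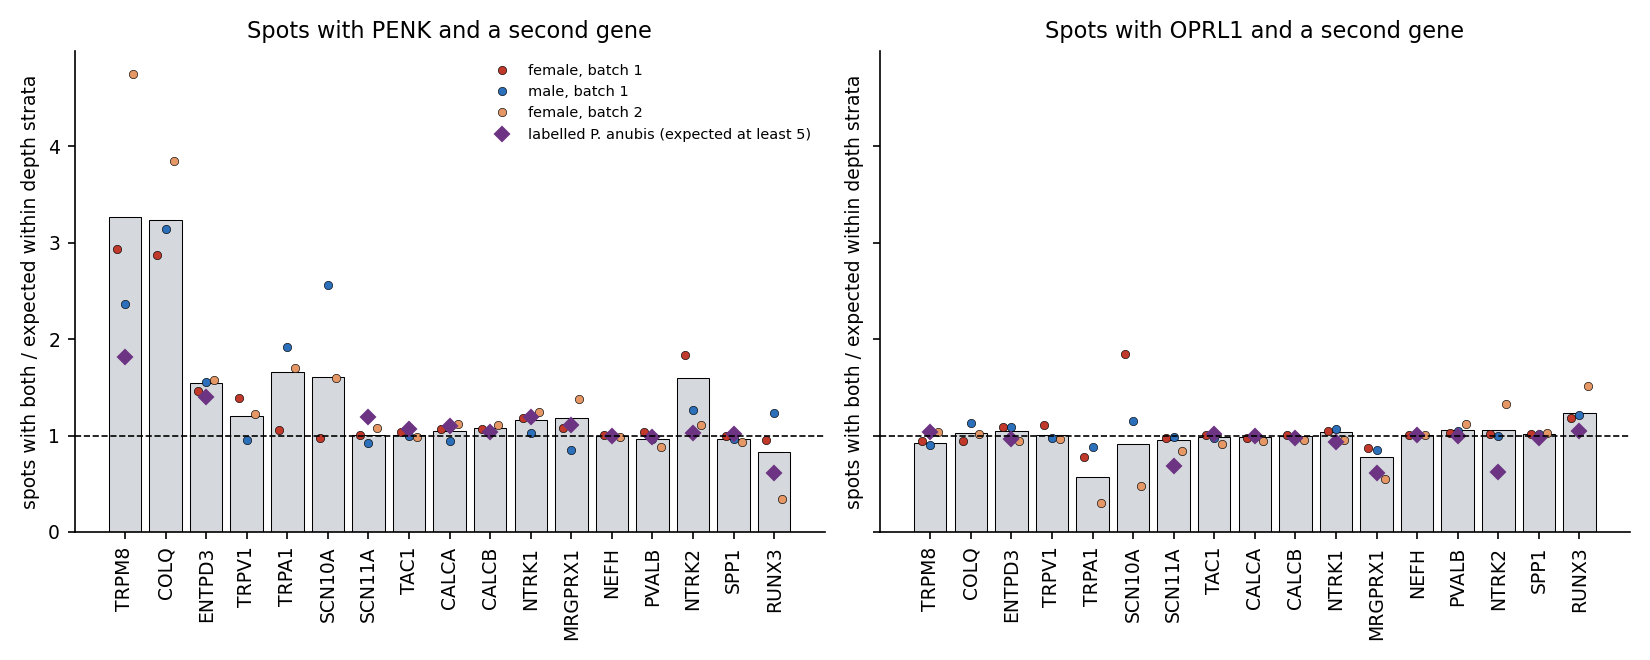
Spots with PENK (left) or OPRL1 (right) and a second gene, as observed over expected within depth strata; grey bars pool M. fascicularis, circles are 3 of its specimens and diamonds the sections labelled P. anubis where at least 5 spots were expected. The PENK bars for TRPM8 and COLQ, genes picked by their likeness to PENK in the same spots, stand above 3. The OPRL1 bars for the same genes stand near 1.

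The other opioid precursors gave few UMIs, while the enzymes that cut them were detected in every M. fascicularis specimen. PDYN gave 2 UMIs in M. fascicularis sections, 1 in each specimen of batch 2, and 56 in the sections labelled P. anubis. PNOC, the precursor of the OPRL1 ligand, averaged 0.512 ± 0.508, 0.380 ± 0.379, 0.449 ± 0.502 and 0.402 ± 0.488 CPM in the female and male of batch 1 and the female and male of batch 2 (SD, n = 4 sections each). POMC, the precursor of beta-endorphin, averaged 1.27 ± 0.773, 1.66 ± 1.38, 2.73 ± 0.723 and 3.16 ± 1.43 CPM in that order. Carboxypeptidase E (CPE) lay between 331 and 510 CPM over the 16 M. fascicularis sections. The convertase PCSK2 averaged 41.9 to 46.1 CPM and PCSK1 7.96 to 12.6 CPM by specimen.

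Of 58 genes listed for opioid peptide making, breakdown, signalling and receptor regulation, 41 were tested between batches and 0 rose and 3 fell in batch 2, where 2.88% of all genes were called, 1.26% higher and 1.61% lower. MME, neprilysin, fell by 2.16 on the log2 scale (SE 0.24, edgeR adjusted p 0.00579), from 94.2 ± 39.5 and 79.9 ± 10.1 CPM in the female and male of batch 1 to 15.8 ± 2.41 and 20.5 ± 2.62 CPM in batch 2 (SD, n = 4 sections each). RGS19 and RGS4, which speed the shut-off of Gi/Go proteins, fell by 1.33 and 1.24 (edgeR adjusted p 0.0465 and 0.0414); the RGS19 call was lost in 5 of 21 alternatives and the RGS4 call in 2 of 21. The median over all genes was -0.011. The fibroblast list moved with the batch too, at 5559 and 4649 CPM in batch 1 and 2893 and 1878 CPM in batch 2, as did the myelinating Schwann list (6058 and 5627 against 2262 and 3299 CPM), the immune list (1881 and 1794 against 1102 and 629 CPM) and the adipocyte list (1356 and 1266 against 2519 and 4841 CPM); their part in these differences was not tested. Between the sexes 0 of 41 were called.

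In neuron-rich spots 9 of 41 listed genes rose and 14 fell, where 38.3% of all genes were called. The count of lower genes depended on the ranking: 8 rose and 3 fell with the list without neurofilament and peripherin genes, and 8 rose and 4 fell with spots ranked by UMIs of the list. DESeq2 called 7 higher and 8 lower, the fit without the female of batch 1 called 7 and 7, and that without the specimen as a block called 0 and 0. By list, the peptide processing genes had 4 higher and 3 lower of 9 tested (median log2 fold change 0.028), peptidases 1 and 3 of 6 (-0.27), G proteins 2 and 2 of 6 (-0.065), channels and cyclases 2 and 0 of 4 (0.44) and receptor regulators 0 and 6 of 15 (-0.14), against a median of -0.036 over all genes. CHGA, a granin of dense-core vesicles, rose by 1.07 (SE 0.07, edgeR adjusted p 4.23e-11) and CPE by 0.52 (SE 0.07, edgeR adjusted p 4.56e-06). MME fell by 0.71 (SE 0.12, edgeR adjusted p 8.03e-05), ACE, another enkephalin-cleaving peptidase, by 0.67 and GRK5, a receptor kinase, by 0.67; of 13 alternatives the call was lost in 1 for CHGA, CPE and MME, in 6 for ACE and in 3 for GRK5. ADCY8, a calcium-stimulated adenylyl cyclase, was higher by 0.88 and SCG2, a granin, lower by 0.59, but both changed sign in other rankings of the spots, ADCY8 in 1 and SCG2 in 2 of 13 alternatives. PCSK1 was lower by a log2 fold change of -0.54 and PCSK2 higher by 0.24, and each lost its call in 6 of 13.

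Between nociceptor-rich and large-fibre-rich spots 17 of 39 listed genes were higher in the former and 8 lower, where 34.3% of all genes were called. SCG2 was higher by 2.26 on the log2 scale (SE 0.12, edgeR adjusted p 5.72e-11). PCSK1, which cleaves proenkephalin, was higher by 1.64 (SE 0.22, edgeR adjusted p 9.15e-06). PCSK1 stood at 10.1 against 3.11, 16.8 against 6.34, 22.5 against 4.52 and 9.92 against 5.51 CPM in the 4 specimens. RGS4 was higher by 1.60, while ADCY8 (-2.37), CHGA (-1.70), RGS20 (-1.22) and CPE (-0.71) were lower. Calls for SCG2, PCSK1, ADCY8, CHGA and CPE held in all 11 alternatives, that for RGS4 was lost in 1 of 11 and that for RGS20 in 5 of 10. Receptor regulators had 7 higher and 1 lower of 14 tested (median 0.53) and peptide processing genes 4 and 3 of 9 (median 0.14), against a median of 0.015 over all genes. PCSK2 (0.14), MME (-0.23) and POMC (-0.20) did not pass.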

How the data were processed

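UMI counts per gene and spot were deposited by the authors, made with Space Ranger 2.0.0 (12 sections) or 2.1.0 (7 sections), per the file headers; the submitters' processing notes name the build Mmul_10. Moran's I (a score) and its p-value per gene were deposited by the authors. CPM used all features under tissue. Counts were summed per title code, or per spot class and title code, and tested with edgeR 4.0.16 (quasi-likelihood, Benjamini-Hochberg over all genes tested; R 4.3.3), with DESeq2 1.42.0 and limma 3.58.1 as alternatives; the fits were tested on simulated data. Nothing in the labels says that sections or codes are separate animals, so p-values measure the spread between these samples. Named genes were the 5 members, genes of median likeness at least 0.1, and of the pathway lists the called genes (at most 6 per comparison, by size) plus PDYN, POMC, PNOC, MME, CPE, PCSK1 and PCSK2. Members and lists were chosen with earlier results of these data known. The PENK-TRPM8 counts, marker-list contrasts and the run without a PENK-rich spot were added after seeing the data.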

Additional observations from a re-analysis of the deposited data

Results flagged for a closer look

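OPRM1 in the female of batch 1 had its only UMIs in section 2, at 0.468 CPM with the other 3 sections at 0, a gap as wide as the whole range. The female of batch 2 showed the same for section 1, at 0.465 CPM. Each value is 2 UMIs. With UMIs in a single section of a group the gap always equals the range, so counts this sparse meet the criterion whatever the level.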

How the results depend on the processing

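Between batches 0 members were called in most alternatives and 1 (OPRL1) without a filter on low counts, with sections as samples, and with the section number as a replicate block (log2 fold change -1.004, edgeR adjusted p 2.70e-05); leaving out each section gave 0 to 1. Same-numbered sections did not deviate together in every pair (24 correlations from -0.106 to 0.434, 8 over 0.1; 3 of 16 sections were closest to their own number), so the numbers were not taken as pairs; between the female and male of batch 1 all 4 were over 0.1 (0.246, 0.223, 0.434 and 0.391), and in batch 2 none was. PENK turned to 0.20 with the replicate block and ranged from -1.02 to 0.012 without a section. Between sexes 1 member (PENK) was called without a filter and 0 in the other 20 alternatives; the OPRL1 value ranged from -0.069 to 0.19 without a section, and was -0.00071 with the replicate block. Genes called between batches were 364 in the chosen fit, 4345 with sections as samples, 4448 with the replicate block, 1279 without a filter and 115 to 942 without a section; between sexes 0, 8, 5, 67 and 0. In neuron-rich spots 2 members were called, PENK lower, with the top 10% of spots, without a filter and without the PENK-rich spot, 0 without a block for the title code (0 of 11370 genes), and 1 to 2 without a title code, where PENK ranged from -0.77 to 0.18; DESeq2 called 2723 of all genes against 4598. Between nociceptor- and large-fibre-rich spots 1 was called with DESeq2 (2256 of all genes against 3693) and without the PENK-rich spot, 0 without a block (616 genes), and 1 to 2 without a title code. OPRL1 in sections labelled P. anubis over M. fascicularis was 1.18 over shared genes and 0.996 over all features, against a median that pools both M. fascicularis batches. With an I of at least 0.1 as well, 0 of the 5 Moran calls remained. Moran's I recomputed over adjacent spots was higher for PENK in section 2 labelled P. anubis (0.137 against 0.0596). For OPRM1 in section 1 of the male of batch 1 it was lower (-0.0023 against 0.0276). The PENK and OPRL1 odds ratio was 2.66 without depth strata. The ratio of PENK and TRPM8 spots to expected was 3.26, 6.12 without strata and 2.68 to 3.66 without a title code. Depth limits OPRM1, OPRD1 and OPRK1 to bounds.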
